A study of Mus musculus with 20 samples.

Results

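The mitochondrial chromosome of the mouse carries 37 genes, and all 37 were present among the 55536 genes of the count table. They were taken by their symbols, which begin with mt-, and consist of 13 mRNA, 2 rRNA and 22 tRNA genes. Hippocampal RNA came from male mice of 12 weeks of age (strain label C57BL/6J), collected at day 7 after a single dose of LPS or of saline. The 4 groups of 5 libraries were Fkbp5 knockout after 3 mg/kg LPS, Fkbp5 knockout after saline, wild-type after 3 mg/kg LPS and wild-type after saline. LPS, lipopolysaccharide, is a bacterial cell wall component used to provoke inflammation, and Fkbp5 encodes a co-chaperone of the glucocorticoid receptor. The labels name neither the knockout allele nor its breeding, and they do not say whether the libraries of a group came from separate animals, so p-values measure the spread between libraries, which may be technical. In whole hippocampus, fewer cells of a type and less RNA per cell cannot be told apart.

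Mitochondrial DNA is transcribed from both strands into long precursors. The tRNAs lie between most of the other genes, and their excision frees the mRNAs and rRNAs. The mRNAs encode core subunits of the respiratory complexes I, III and IV and of the ATP synthase, complex V, while the rRNAs and tRNAs serve translation inside the mitochondrion. All other subunits, and the proteins of mitochondrial transcription, RNA processing and translation, are encoded in the nucleus. In brain, neurons depend on this respiration for their ATP.

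Total counts were 16652992 to 27230202 per library, a depth at which 3 counts, read as the upper limit of a count of 0, correspond to 0.110 to 0.180 CPM (counts scaled to the library total, raw and without further factors). Fkbp5 itself was lower in the knockout after saline (log2 fold change -1.04 ± 0.11, SE, edgeR adjusted p = 2.79e-05) and after LPS (-1.17 ± 0.11, edgeR adjusted p = 7.05e-06), with transcript remaining in both. Libraries numbered 1 and 2 in each group stood apart from those numbered 3 to 5. The first principal component of 16389 nuclear genes held 52.9% of their variance and separated these sets. The labels do not say what the numbers stand for. Each set holds libraries of all 4 groups, so results are given over all libraries and within the sets. Markers of hippocampal cells (12 of 12 in every library) summed to 3516 to 5021 CPM. Markers of thalamus, a neighbouring tissue (12 of 12 present, 11 in every library), summed to 178 to 241 CPM in replicate 1 of the knockout LPS group and replicates 1 and 4 of the wild-type LPS group, against 89.5 to 172 CPM in the other libraries.

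The 5 tRNA genes that carry the findings below are printed from the GENCODE M21 transcripts of GRCm38, with the anticodon in capitals. The first pair was lower in the knockout where the library sets were taken into account, while neither passed the test without that. The other 3 lie side by side and were lower in replicates 3 to 5.
mt-Tp: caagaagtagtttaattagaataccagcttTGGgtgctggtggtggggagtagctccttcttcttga
mt-Tl1: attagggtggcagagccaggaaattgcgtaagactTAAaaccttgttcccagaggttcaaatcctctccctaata
mt-Th: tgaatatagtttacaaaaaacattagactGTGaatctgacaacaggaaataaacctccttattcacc
mt-Ts2: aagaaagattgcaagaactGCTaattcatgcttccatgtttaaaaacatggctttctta
mt-Tl2: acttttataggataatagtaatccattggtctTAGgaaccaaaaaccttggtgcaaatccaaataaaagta
mt-Tp, the proline tRNA, is a light-strand gene at MT:15356-15422 and is the last annotated gene of the chromosome. mt-Tl1, a leucine tRNA, lies on the heavy strand at MT:2676-2750 between the large rRNA and mt-Nd1. The tRNAs for histidine, serine and leucine, mt-Th, mt-Ts2 and mt-Tl2, fill MT:11546-11741 on the heavy strand between mt-Nd4 and mt-Nd5. Each is a gene of 1 exon.

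Part of the chromosome has a copy in the nuclear genome that bears on what could be counted. When the 37 transcripts were aligned to the nuclear transcripts of the same annotation (blastn), 7 mRNAs found an almost identical pseudogene on chromosome 1, at 24611535 to 24616197 on the minus strand. The identity was 100% for mt-Co2, mt-Atp6, mt-Co3, mt-Nd4l and the first 876 bases of mt-Nd4. It was 99.71% over 345 bases of mt-Nd3, and 99.793% over the last 483 bases of mt-Co1. The distances between the neighbouring genes were the same on both chromosomes except between mt-Nd3 and mt-Nd4l, with 73 bases on MT and 74 on chromosome 1, so the copy corresponds to 1 stretch, MT:6390-11042, of 4653 bases. mt-Atp8 lies inside the stretch, but no annotated transcript on chromosome 1 matched it by itself. Less similar transcripts of other chromosomes also matched. On chromosome 2, Gm13340 matched all 1545 bases of mt-Co1 at 97.605% identity, with 287 to 803 counts per library. Gm13341 matched mt-Co2 at 95.906% and Gm13339 matched 510 bases of mt-Nd2 at 96.667%. Gm4076 on chromosome 13 matched 954 bases of mt-Nd5 at 95.178%. Further matches had lower identity. The single mismatch of mt-Nd3, T3C counted from the first base of the gene, is shown with the start of the gene and of its copy, the mismatched base in capitals.
mt-Nd3: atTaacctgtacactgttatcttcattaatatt
Gm28438: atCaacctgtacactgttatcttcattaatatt
A single base in the aligned part also separated mt-Co1 from its copy on chromosome 1 (A1066T, counted from the first base of mt-Co1). The base is in capitals in the stretches below, and upstream of it the copy no longer follows the gene.
mt-Co1: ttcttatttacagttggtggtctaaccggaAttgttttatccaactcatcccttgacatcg
Gm29216: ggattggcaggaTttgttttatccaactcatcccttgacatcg
A read within such identical sequence has no unique place. How such reads were treated is not given in the sources used here, so the values of the genes in this stretch are uncertain.

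Over all 20 libraries, the 37 genes took 7.78% ± 2.39 (SD, n = 20) of all counts, with 4.66% in the lowest library and 11.4% in the highest. Of the mitochondrial counts, the mRNAs held 83.7%, the rRNAs 16.0% and the tRNAs 0.296% on average. All 37 genes had a count in some library and 29 had one in every library.

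Levels per length differed by orders of magnitude among the 13 mRNAs. mt-Co1, the catalytic subunit of complex IV, was highest with 16596 ± 5488 CPM per kb (SD, n = 20). mt-Nd1 of complex I followed with 9990 ± 2933 CPM per kb and mt-Cytb, the complex III subunit, with 9822 ± 2926 CPM per kb. mt-Co1 was above mt-Nd1 in 20 of 20 libraries, while mt-Nd1 was above mt-Cytb in 15 of 20, less than their spread. Below them came 4 genes of complex I, mt-Nd2 with 5650, mt-Nd4 with 3995, mt-Nd5 with 3041 and mt-Nd6 with 2786 CPM per kb. mt-Nd6 is the sole mRNA of the light strand, and it was below mt-Nd5 in 15 of 20 libraries.

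The other 6 mRNAs formed a separate low class. They were mt-Atp6 with 153 ± 95.9, mt-Nd3 with 125 ± 22.9, mt-Co2 with 108 ± 48.4, mt-Co3 with 84.9 ± 116, mt-Nd4l with 57.4 ± 42.7 and mt-Atp8 with 25.7 ± 22.4 CPM per kb (SD, n = 20). mt-Atp6 and mt-Atp8 are the ATP synthase subunits, and mt-Co2 and mt-Co3 complete the complex IV core with mt-Co1. mt-Nd6 was above mt-Atp6 in 20 of 20 libraries. All 6 lie inside the copied stretch, and together they took 0.408% of mitochondrial counts, against 83.3% for the other 7 mRNAs. Within the low class, neighbours in the order kept it in 11 to 18 of 20 libraries.

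**Figure D1:**
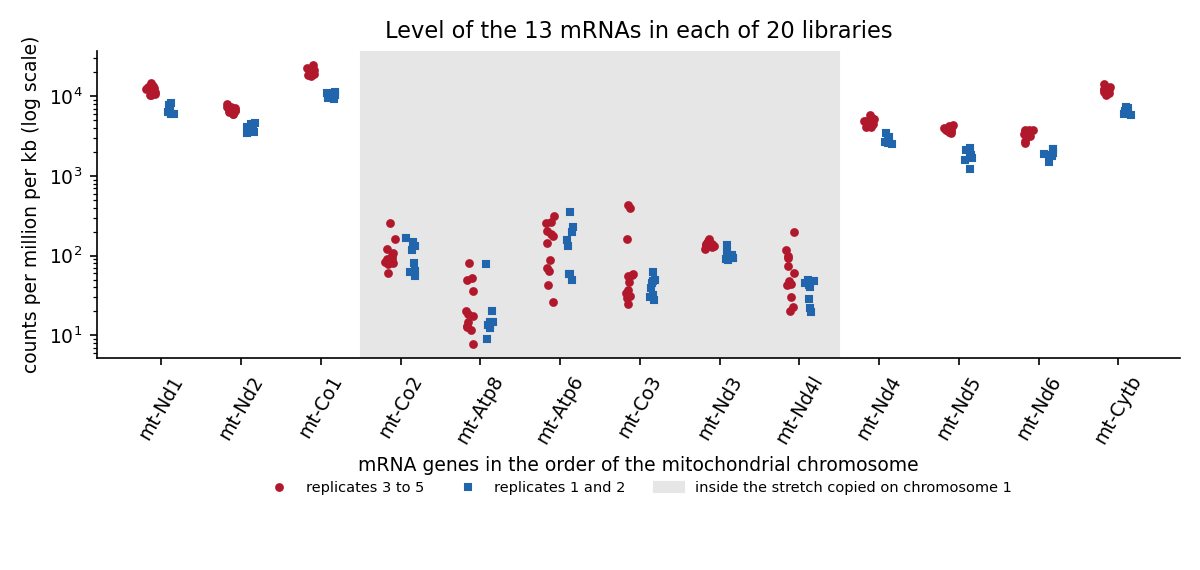
CPM per kb (log scale) of the 13 mRNAs in each of the 20 libraries, with genes in chromosome order, replicates 3 to 5 as red circles and replicates 1 and 2 as blue squares. The 6 genes inside the shaded stretch lie far below the other 7, of which mt-Co1 and mt-Nd4 reach into it with part of their length, and all but mt-Nd3 scatter more between libraries.

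Among the mRNAs, 5 of the 6 in the low class also varied most. Between the lowest and the highest library, counts differed 16.6-fold for mt-Co3 (373 to 6206), 15.8-fold for mt-Atp8 (28 to 442), 15.4-fold for mt-Atp6 (314 to 4830) and 11.2-fold for mt-Nd4l (106 to 1182). mt-Nd3 differed 1.58-fold (664 to 1050), the least of the members counted in every library. Among the other 7 mRNAs, the ratio was 1.96-fold (mt-Nd2) to 2.80-fold (mt-Nd5). Some of these mRNAs had counts near those of their pseudogene copies on chromosome 1 and others did not. Gm10925, the copy of mt-Atp6, had 764 to 2708 counts, and mt-Atp6 was above it in 12 of 20 libraries. Gm28437, the copy of mt-Co3, had 364 to 2397, and mt-Co3 was above it in 9 of 20. mt-Co2 was above its copy in 16 of 20 libraries and mt-Nd4l in 19 of 20, at 0.363 to 14.4 times the copy. mt-Nd3 was above its copy in 20 of 20, 3.35- to 22.8-fold. mt-Nd4 and mt-Co1, which share only part of their length with the copy, had 111 to 415 times and 157 to 1462 times its counts.

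mt-Co1 and mt-Nd4 reach into the stretch with part of their length. Divided by their length outside it alone, an alternative chosen after the values were seen, mt-Co1 had 24144 and mt-Nd4 10966 CPM per kb. That part of mt-Co1 is still matched by Gm13340 on chromosome 2, which aligned to the whole gene at 97.605% identity. mt-Nd4 would then rank above mt-Nd1 in 19 of 20 libraries.

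Both rRNAs were abundant. mt-Rnr1, the rRNA of the small ribosomal subunit, averaged 5162 CPM per kb and 6.35% of mitochondrial counts. mt-Rnr2, that of the large subunit, averaged 4768 CPM per kb and 9.65% of mitochondrial counts. Per full gene length, both were below mt-Nd2 and above mt-Nd4. By its length outside the copied stretch alone, mt-Nd4 (10966 CPM per kb) was above both.

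The tRNAs were counted very unevenly. mt-Tp had 48966 counts over all libraries, mt-Tc, the cysteine tRNA, 14973 and mt-Tn, the asparagine tRNA, 11806. With mt-Te for glutamate, these took 88.3% of all tRNA counts, and all 4 are light-strand genes. The 8 tRNAs of the light strand held 91.3% of tRNA counts and the 14 of the heavy strand 8.75%. At the other end, mt-Tf for phenylalanine and mt-Td for aspartate had 1 count in all, and mt-Tk for lysine had 3. The 5 tRNAs inside the copied stretch, mt-Ts1, mt-Td, mt-Tk, mt-Tg and mt-Tr, reached at most 28 counts in a library. Many tRNAs touch or overlap their neighbours, and the strand setting is not given, so reads of a tRNA and of transcripts running through it cannot be told apart.

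The sharpest division of the mitochondrial counts was between the library sets. Replicates 3 to 5 held 9.60% ± 0.88 of their counts in these genes (SD, n = 12), against 5.05% ± 0.37 in replicates 1 and 2 (SD, n = 8), a ratio of 1.90. The lowest library of replicates 3 to 5 had 8.41% and the highest of replicates 1 and 2 had 5.68%, so the sets did not overlap. The sets were chosen because libraries differ along them, so these values are a description with no test.

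**Figure D2:**
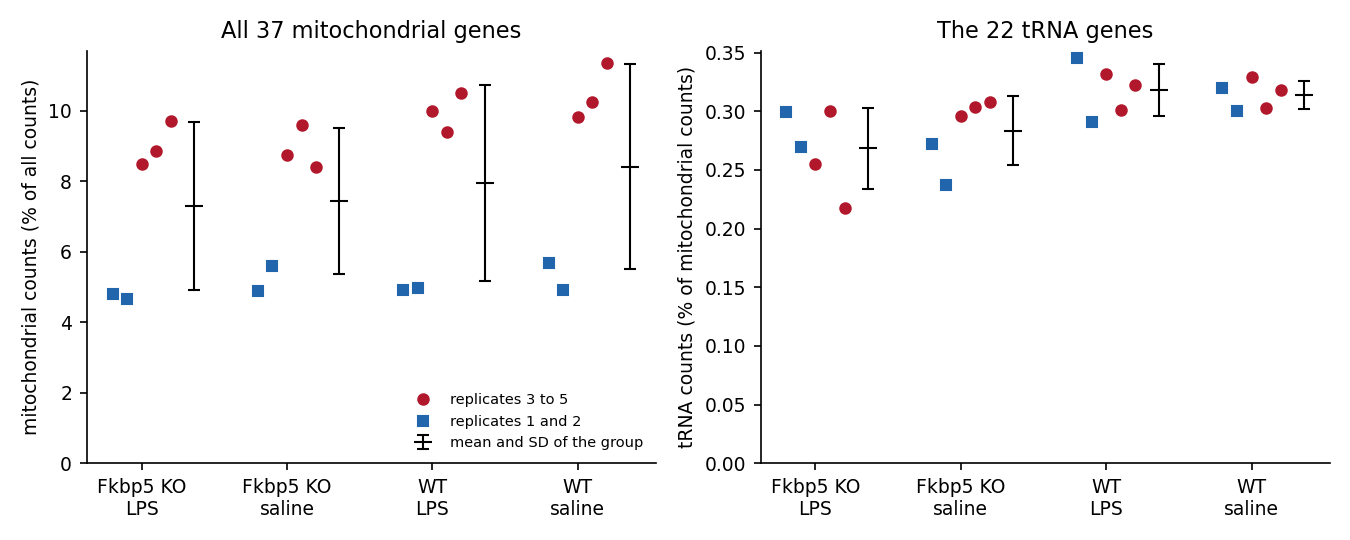
Left, mitochondrial counts as a percentage of all counts, and right, tRNA counts as a percentage of mitochondrial counts, in each library of the 4 groups, with the group mean and SD in black. In every group the red circles (replicates 3 to 5) lie above the blue squares (replicates 1 and 2) on the left, while on the right the sets overlap and the knockout means of 0.268% and 0.283% lie below the wild-type means of 0.318% and 0.314%.

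By class, the make-up of the mitochondrial counts was nearly the same in both sets. The mRNAs took 83.6% of them in replicates 3 to 5 and 83.8% in replicates 1 and 2, the rRNAs 16.1% and 15.9%, and the tRNAs 0.299% and 0.292%. Single genes differed more in their share of mitochondrial counts, with ratios from 0.0481 for mt-Tl2 to 1.32 for mt-Co3, the latter with overlap. In CPM, 12 of the 37 genes were above without overlap in replicates 3 to 5 (3.17% of the 16419 genes tested were). Another 3 were below without overlap (21.5% of genes were), and 22 overlapped. The 12 were the 7 mRNAs that are not wholly inside the copied stretch, both rRNAs, mt-Tn, mt-Tc and mt-Tp. Among these 7 mRNAs the ratio between the sets was 1.70 for mt-Nd2 to 2.15 for mt-Nd5. mt-Co1 averaged 32106 ± 3062 CPM in replicates 3 to 5, against 15943 ± 1125 CPM in replicates 1 and 2, a ratio of 2.01.

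The largest ratios were those of mt-Co3 (2.70, with overlap), mt-Tn (2.36) and mt-Tp (2.17). mt-Tn averaged 39.7 ± 5.55 CPM in replicates 3 to 5, against 16.8 ± 4.11 CPM in replicates 1 and 2. mt-Tp averaged 162 ± 33.7 CPM in replicates 3 to 5, against 74.4 ± 9.66 CPM in replicates 1 and 2 (SD, n = 12 and 8). For mt-Co3 the ratio rests on 3 libraries of replicates 3 to 5, replicates 4 and 5 of wild-type saline with 338 and 309 CPM and replicate 5 of wild-type LPS with 126 CPM. The other 9 of that set had 19.3 to 46.3 CPM, and replicates 1 and 2 had 21.7 to 49.6 CPM.

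The 3 neighbouring tRNAs between mt-Nd4 and mt-Nd5 went the other way. mt-Tl2 had 1 to 18 counts in replicates 3 to 5, against 75 to 177 in replicates 1 and 2, a ratio of 0.0928 between their CPM. mt-Th had 0 to 13 counts in replicates 3 to 5, against 20 to 50 in replicates 1 and 2, a ratio of 0.143. mt-Ts2 had 0 to 11 counts in replicates 3 to 5, against 24 to 35 in replicates 1 and 2, a ratio of 0.208. Their neighbour mt-Nd5 is the mRNA with the highest ratio among the 7 not wholly inside the stretch. mt-Nd4, on the other side, had a ratio of 1.71. The tRNAs inside the copied stretch with enough counts for a ratio, mt-Tg (0.766) and mt-Tr (0.532), were also lower in replicates 3 to 5, but their libraries overlapped.

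**Figure D3:**
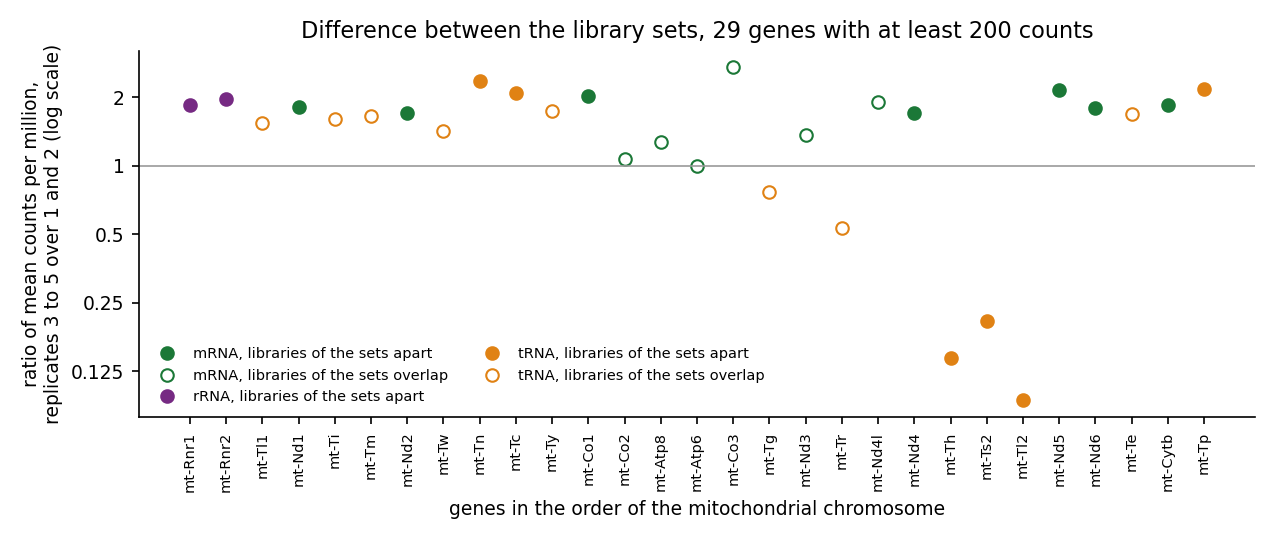
Ratio of mean CPM in replicates 3 to 5 over replicates 1 and 2 (log scale) for the 29 genes with at least 200 counts in all, in chromosome order, with filled points where no library of one set overlaps the other. Most genes lie between 1.4 and 2.4, and mt-Th, mt-Ts2 and mt-Tl2 lie at 0.0928 to 0.208.

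Some other measures also differed between the sets, part of them with overlap. Summed lncRNAs known to stay in the nucleus (Malat1, Neat1, Meg3 and 5 others, 8 of 8 present in every library) had 546 to 1131 CPM in replicates 3 to 5, against 1363 to 8077 CPM in replicates 1 and 2. The lncRNAs differed in this. Neat1 (ratio 0.0653) and Snhg11 (0.0868) were lower in replicates 3 to 5 without overlap. Meg3 (0.121) and Malat1 (0.738) were lower with overlap. Genes with a count numbered 21064 to 22247 in replicates 3 to 5, against 23650 to 25237 in replicates 1 and 2. Summed blood genes (5 of 5 present, 3 in every library) overlapped. They had 2.74 to 81.3 CPM in replicates 3 to 5, against 1.20 to 42.0 CPM in replicates 1 and 2. The part of these measures in the mitochondrial difference was not tested. The nuclear genes of complexes I to V, counted from 75 tested, had a median ratio of 1.21. The median was 0.813 over all genes tested and 1.69 over the 30 mitochondrial genes tested. Of the 75, 13 were above and 1 below without overlap (17.3% and 1.33%, against 3.17% and 21.5% of all genes). The 11 tested genes of mtDNA replication and packaging had a median of 0.644, with 0 above and 3 below without overlap (27.3% below). The 10 of mitochondrial transcription had a median of 0.802, also with 0 above and 3 below (30% below). For the 24 of mitochondrial RNA processing and decay it was 0.871, with 0 above and 7 below (29.2% below). For the 80 of the mitochondrial ribosome it was 0.972, with 0 above and 6 below (7.5% below).

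The next question was whether LPS or the loss of Fkbp5 moved the mitochondrial genes. All 20 libraries entered 1 edgeR fit of 16419 genes, in which 30 of the 37 members passed the filter on low counts. The 7 that did not are tRNAs, mt-Tf, mt-Tv, mt-Ta, mt-Ts1, mt-Td, mt-Tk and mt-Tt. A member is called where its p, adjusted by Benjamini-Hochberg across the 16419 genes, is under 0.05. Percentages of genes called refer to this threshold. Counts of members at an unadjusted p under 0.05 are given without the share of all genes there, and are not read as an excess. Log2 fold changes are on the scale of TMM-normalised counts and carry their SE. The comparisons within a genotype and within a treatment share libraries, so they are not independent of each other.

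After LPS the mitochondrial share was 7.31% ± 2.39 in knockout libraries, against 7.45% ± 2.08 after saline (SD, n = 5 each). By library, it was 4.80, 4.66, 8.48, 8.87 and 9.71% after LPS and 4.89, 5.60, 8.74, 9.60 and 8.41% after saline. In wild-type it was 7.96% ± 2.78 after LPS, against 8.41% ± 2.91 after saline (SD, n = 5 each). Those libraries had 4.90, 4.99, 9.99, 9.42 and 10.5% after LPS and 5.68, 4.92, 9.82, 10.3 and 11.4% after saline. The groups overlapped in both genotypes. Neither difference passed an exact two-sided permutation test, with p = 0.881 in knockout and p = 0.635 in wild-type (n = 5 each, smallest possible p 0.00794), nor with labels permuted within the library sets, p = 0.75 and 0.233.

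No member was called for LPS. In edgeR, 0 of 30 were called in knockout (0.00609% of all genes were) and 0 of 30 in wild-type (0% of all genes were). At an unadjusted p under 0.05 there were 0 and 1 members, with the same counts in DESeq2 and 0 and 0 in limma-voom, neither of which called any. Over both genotypes, 0 of 30 were called (0.0426% of genes), with 0 at an unadjusted p under 0.05 by any of the 3 tools. For the interaction of genotype and LPS, 0 of 30 were called (0% of genes), with 1, 1 and 0 at an unadjusted p under 0.05 in edgeR, DESeq2 and limma-voom. With a term for the library set, edgeR again called 0 in knockout (0.0426% of genes), wild-type (0.0183%), over both genotypes (0.146%) and for the interaction (0%), with 2, 1, 4 and 1 at an unadjusted p under 0.05. Over both genotypes, 27 of 30 had a log2 fold change below 0, with a median of -0.12, against 50.7% of all genes and a median of 0.00 over them.

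The members with the smallest p for LPS lie in the copied stretch. In wild-type mt-Co3 had -1.74 ± 0.72 (edgeR adjusted p = 1.00), resting on the wild-type saline libraries described above, and mt-Tg, the glycine tRNA, had 0.57 ± 0.34 (edgeR adjusted p = 1.00). In knockout mt-Tr, the arginine tRNA, had -0.68 ± 0.39 and mt-Tg -0.51 ± 0.35 (edgeR adjusted p = 1.00 for both). For the interaction, mt-Tg had -1.08 ± 0.49 and mt-Co3 2.05 ± 1.00 (edgeR adjusted p = 1.00 for both). Over both genotypes they were mt-Co2 (-0.43 ± 0.24) and mt-Co3 (-0.71 ± 0.50), with edgeR adjusted p = 1.00.

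Nuclear genes of the same pathway were not called for LPS either. Of the 75 tested genes of complexes I to V, edgeR called 0 in knockout and 0 in wild-type. In knockout 56 were above 0 and 19 below, with a median of 0.05. Over all genes the median there was 0.01, with 46.9% below 0. In wild-type 74 were below 0 with a median of -0.07, against a median of -0.02 and 55.2% below 0 over all genes. Their median for the interaction was 0.13, with 4 of 75 below 0 and none called, against a median of 0.02 and 45.2% below 0 over all genes.

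For the knockout, 2 tRNAs, mt-Tp and mt-Tl1, were lower than in wild-type once the library sets were taken into account, while no member was called without that term. The mitochondrial share as a whole passed its test within the sets before adjustment and not after it. That share was 7.38% ± 2.11 in the 10 knockout libraries, against 8.19% ± 2.69 in the 10 wild-type libraries (SD). Over all libraries this did not pass an exact two-sided permutation test within treatments (p = 0.479). With labels permuted within the library sets, the exact permutation test gave p = 0.0075, and 0.0675 after Benjamini-Hochberg adjustment over the 36 tests of shares. Within replicates 3 to 5, the knockout mean was 8.97%, against 10.2% in wild-type (exact permutation test, p = 0.015, n = 6 each). After saline, the 3 knockout libraries of that set (8.41 to 9.60%) were all below the 3 of wild-type (9.82 to 11.4%), where the smallest possible p is 0.1. After LPS they overlapped (8.48 to 9.71% in knockout, against 9.42 to 10.5% in wild-type). Within replicates 1 and 2, the means were 4.99% in knockout and 5.12% in wild-type (exact permutation test, p = 0.389, n = 4 each, smallest possible p 0.0556).

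In edgeR without further terms, no member was called for the knockout. This was 0 of 30 over both treatments (0.439% of all genes were called), 0 of 30 after LPS (0.146%) and 0 of 30 after saline (0.171%). At an unadjusted p under 0.05 there were 3, 2 and 2 members, with the same counts in DESeq2 and 2, 3 and 0 in limma-voom, and neither tool called any. Over both treatments, 29 of 30 members were below 0, with a median of -0.22, against 53.8% of all genes and a median of -0.01. The smallest p belonged to mt-Tr (-0.83 ± 0.26, edgeR adjusted p = 0.417) and mt-Co3 (-1.25 ± 0.50, edgeR adjusted p = 0.805). After LPS they were mt-Tr (-1.28 ± 0.38, edgeR adjusted p = 0.541) and mt-Tg (-0.93 ± 0.35, edgeR adjusted p = 1.00). After saline they were mt-Co3 (-2.28 ± 0.73, edgeR adjusted p = 0.926) and mt-Nd4l (-1.22 ± 0.56, edgeR adjusted p = 1.00), both inside the copied stretch. mt-Tr had 4 to 25 counts in knockout libraries, against 7 to 28 in wild-type, so it rests on few reads.

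With a term for the library set, 2 of 30 members were called for the knockout over both treatments, both lower (0.42% of all genes were called lower). They were mt-Tp (-0.39 ± 0.07, edgeR adjusted p = 0.00418) and mt-Tl1 (-0.44 ± 0.10, edgeR adjusted p = 0.0211). With the replicate number as a block, the same 2 were called, at -0.39 and -0.45 (edgeR adjusted p = 0.00618 and 0.0115). With the set term, 28 of 30 were below 0, with a median of -0.21, against 50.6% of all genes and a median of 0.00. Neither treatment alone gave a call with this term, 0 of 30 after LPS (0.329% of genes) and 0 of 30 after saline (0.286% of genes), with 8 and 5 members at an unadjusted p under 0.05 in edgeR. Without replicate 1 of the knockout LPS group, mt-Tp was called after LPS.

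**Figure D4:**
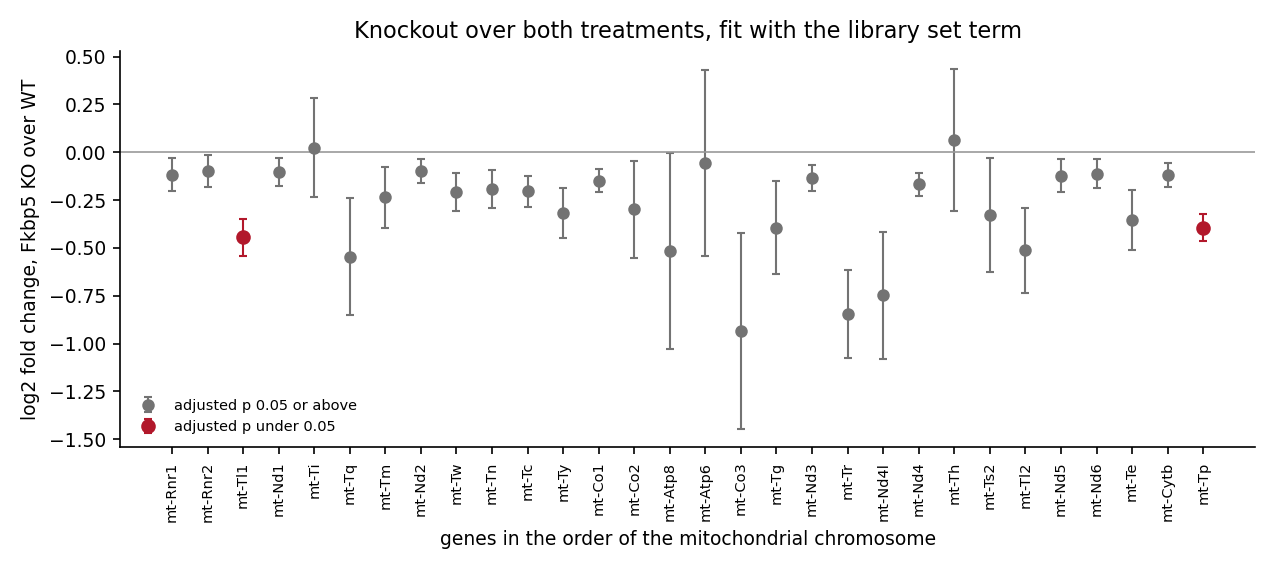
Log2 fold change of Fkbp5 knockout over wild-type, both treatments, with its SE, for the 30 members tested in the edgeR fit with the library set term, in chromosome order. 28 points lie below 0, and mt-Tl1 and mt-Tp, in red, are the 2 called.

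By library, mt-Tp had 75.6, 63.0, 115, 139 and 111 CPM in knockout after LPS, against 78.9, 74.6, 180, 167 and 208 CPM in wild-type after LPS. After saline it had 62.1, 72.6, 147, 157 and 137 CPM in knockout, against 93.0, 75.2, 181, 180 and 218 CPM in wild-type. Within replicates 3 to 5 every knockout library (111 to 157 CPM) was below every wild-type library (167 to 218 CPM). Within replicates 1 and 2 the ranges touched, 62.1 to 75.6 CPM in knockout against 74.6 to 93.0 CPM in wild-type.

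mt-Tl1 had 5.07, 2.97, 6.62, 8.02 and 4.46 CPM in knockout after LPS, against 6.12, 5.50, 8.59, 8.78 and 8.77 CPM in wild-type after LPS. After saline it had 4.99, 3.97, 6.77, 8.12 and 7.70 CPM in knockout, against 7.09, 5.85, 9.85, 8.89 and 9.53 CPM in wild-type. The genotypes did not overlap within either set. These values rest on 78 to 198 counts per library. mt-Tl1 lies directly between mt-Rnr2 and mt-Nd1, whose log2 fold changes with the set term were -0.10 ± 0.08 (edgeR adjusted p = 0.718) and -0.10 ± 0.07 (edgeR adjusted p = 0.655).

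**Figure D5:**
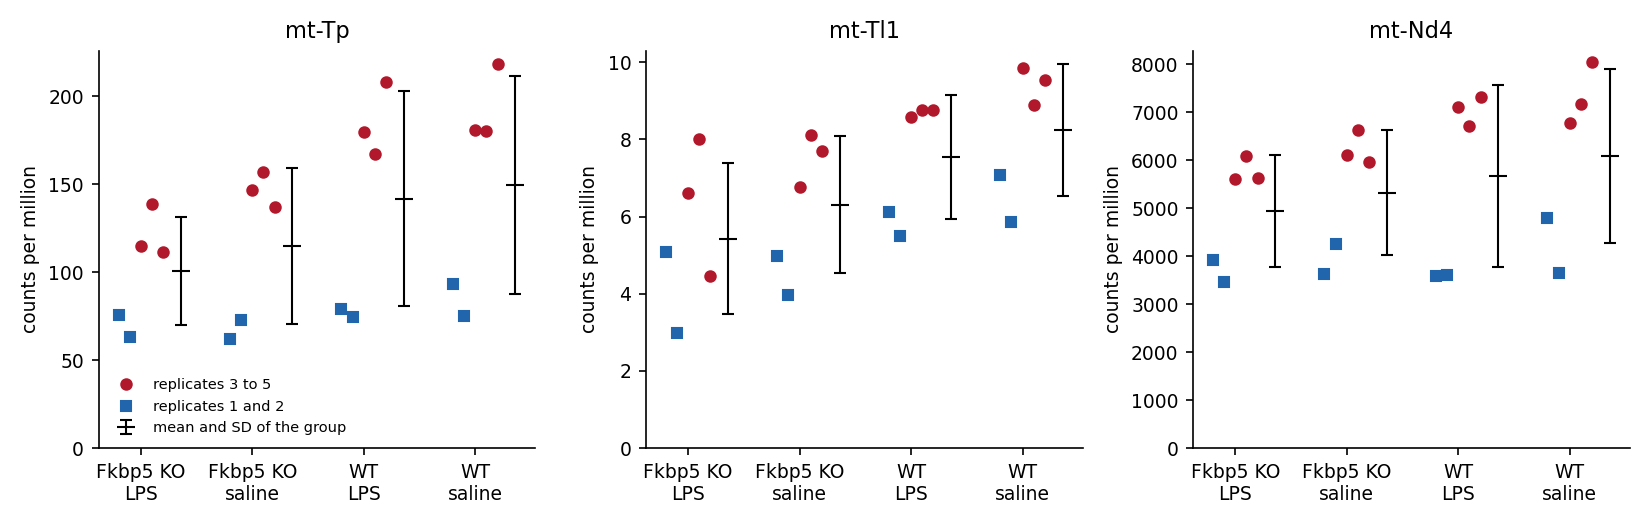
CPM of mt-Tp, mt-Tl1 and mt-Nd4 in each library of the 4 groups, with the group mean and SD in black, red circles for replicates 3 to 5 and blue squares for replicates 1 and 2. Among the red circles, every knockout library lies below every wild-type library in all 3 panels.

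In replicates 3 to 5 alone, 7 of 28 members tested were called lower for the knockout over both treatments (3.38% of the 15523 genes tested were called lower). The first 6 by p were mt-Tp (-0.52 ± 0.08, edgeR adjusted p = 0.000993), mt-Nd4 (-0.28 ± 0.06, 0.00437), mt-Rnr1 (-0.27 ± 0.07, 0.0236), mt-Tl1 (-0.41 ± 0.11, 0.0269), mt-Nd1 (-0.23 ± 0.07, 0.0449) and mt-Rnr2 (-0.22 ± 0.07, 0.0462), and the last was mt-Co2. mt-Co2 lies inside the copied stretch. In replicates 1 and 2 it averaged 82.0 ± 29.6 CPM in knockout, against 59.6 ± 28.3 CPM in wild-type (SD, n = 4 each). In replicates 3 to 5, all 28 were below 0, with no share over all genes given beside it. mt-Nd4 had 5608 to 6632 CPM in the knockout libraries of this set, against 6713 to 8052 CPM in wild-type. Leaving out 1 of its 12 libraries gave 2 to 9 calls. mt-Tp and mt-Nd4 were called each time, and the fewest, those 2 alone, came without replicate 5 of knockout saline or of wild-type LPS. The count was 3 or 4 without replicates 4 or 5 of wild-type saline, replicate 3 of wild-type LPS, replicate 3 of knockout saline or replicate 3 of knockout LPS. In replicates 1 and 2 alone, 0 of 31 were called (0.0564% of 17718 genes in edgeR). At an unadjusted p under 0.05 there were 2, and 19 were below 0, again without the share over all genes. The difference of the knockout effect between the sets was tested in edgeR with 4 groups in each set. It called 0 of 30 members (0.122% of genes were called). At an unadjusted p under 0.05 there were 8, without the share of all genes at that threshold. For mt-Tp the difference was -0.32 (edgeR adjusted p = 0.247) and for mt-Tl1 0.09 (edgeR adjusted p = 0.855). The smallest p was that of mt-Co2, at -1.25 (edgeR adjusted p = 0.124).

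Within each treatment, replicates 3 to 5 gave 1 call, mt-Tp in both cases. It was 1 of 28 after LPS (0.361% of genes were called lower) and 1 of 28 after saline (1.1% of genes). Leaving out single libraries of this set gave 0 to 4 calls after LPS and 0 to 2 after saline. After LPS the call was lost without replicate 3 or replicate 5 of knockout LPS, and 4 members were called without its replicate 4. After saline it was lost without replicates 3, 4 or 5 of knockout saline, replicate 3 of wild-type LPS or replicates 3 or 5 of wild-type saline, and 2 members were called without replicate 4 of knockout LPS or replicate 5 of wild-type LPS.

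As a fraction of the mitochondrial counts, the tRNAs held 0.276% ± 0.0312 in the 10 knockout libraries, against 0.316% ± 0.0169 in the 10 wild-type libraries (SD, exact two-sided permutation test within treatments, p = 0.00157, and 0.0567 adjusted over the 36 tests). With labels permuted within the library sets, the exact permutation p was 0.00167 and 0.03 adjusted. The unadjusted p was thus no lower within the sets. The adjusted p was lower there because those 36 tests also held the smaller p of the tRNA share of all counts. As a percentage of all counts, the tRNAs held 0.0204% in knockout and 0.0259% in wild-type (exact permutation test, p = 0.132), and within the sets p was 0.000139, the smallest this design allows, and 0.005 adjusted. After LPS the libraries had 0.299, 0.269, 0.255, 0.300 and 0.217% in knockout, against 0.345, 0.291, 0.332, 0.301 and 0.322% in wild-type. After saline they had 0.272, 0.237, 0.296, 0.304 and 0.308% in knockout, against 0.320, 0.300, 0.329, 0.303 and 0.318% in wild-type. Both pairs of groups overlapped, and neither passed after adjustment (exact permutation test, p = 0.0317 after LPS and 0.0556 after saline, adjusted p = 0.571 and 0.667). Without mt-Tp, an alternative added after the values were seen, the tRNA share was 0.131% in knockout and 0.143% in wild-type (exact permutation test, p = 0.157). The rRNA share of mitochondrial counts was 16.1% in knockout and 15.9% in wild-type (exact permutation test, p = 0.708).

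Nuclear genes of the respiratory complexes, and of mitochondrial replication, transcription, RNA processing and ribosomes, showed no call beside these. With the library set term, the knockout over both treatments called 0 of the 75 tested genes of complexes I to V, with a median log2 fold change of 0.02. That median joins opposite directions. After saline 54 of 75 were below 0, with a median of -0.04, against a median of -0.01 and 52.7% below 0 over all genes. After LPS 65 of 75 were above 0 and 10 below, with a median of 0.10. Over all genes the median was 0.01, with 47.6% below 0. The knockout over both treatments also called 0 of 10 of mitochondrial transcription, 0 of 11 of mtDNA replication and packaging, 0 of 24 of mitochondrial RNA processing and decay, and 0 of 80 of the mitochondrial ribosome (0.926% of all genes were called). Elac2, which cuts the 3′ ends of tRNAs from the precursor, had -0.02 ± 0.05, Polrmt, the mitochondrial RNA polymerase, 0.03 ± 0.05, and Tfam, which packages and helps transcribe mtDNA, -0.04 ± 0.06. Lrpprc, which stabilises mitochondrial mRNAs, had 0.08 ± 0.08.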

How the data were processed

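The authors deposited raw counts per gene for 20 libraries. Per the labels, libraries were made from total RNA with NEBNext Ultra reagents. Per the submitters' processing notes, Trimmomatic 0.38, FastQC, MultiQC, featureCounts 1.6.0 and the build mm10 were used. The aligner, annotation release, strand setting and treatment of reads with several places are not given in the sources used here. All 55536 gene IDs matched GENCODE M21 (GRCm38), and 0 sample columns were unused. Members and gene lists were chosen with earlier results of these data known. Group differences come from edgeR 4.0.16 in R 4.3.3 (TMM, filterByExpr by group, robust quasi-likelihood F test, Benjamini-Hochberg). The same fit was tested on simulated data with LPS changes only. They held no difference between the library sets and no knockout effect, so they do not bear on the knockout calls. Alternatives used DESeq2 1.42.0, limma 3.58.1, other factors and filters, a library set term, a replicate block, each set alone and fits without single libraries. Shares were compared by exact permutation of group labels. Copies were found with blastn 2.17.0 (at least 90% identity over at least 100 bases; 99% for the copied stretch). The limit of 3 counts for a count of 0 covers counting error only.

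Members named with values are both rRNAs, the 3 highest and 3 lowest mRNAs per kb, mt-Nd6, the 3 tRNAs with most counts, the 3 largest and 3 smallest ratios between sets, and in each comparison those called (first 6 by p) or, with none, the 2 of smallest p. Other members stand in ranges, counts or beside these. Same-numbered libraries of different groups deviated together from their group means in all 30 pairs (correlations 0.263 to 0.854, median 0.460), so the number was used as a block. Differently numbered libraries of the same set had a median of 0.449, so this is mostly shared by the set.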

Additional observations from a re-analysis of the deposited data

Results flagged for a closer look

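In 6 of 144 group-wise checks, 1 library of 5 stood further from the rest than Dixon's 95% critical value of 0.71. Chance flags about 1 in 20 such groups. Of the 6, 4 concern mRNAs of the copied stretch. mt-Co3 had 126 CPM in replicate 5 of wild-type LPS, against 21.7 to 30.9 CPM in the other 4. mt-Atp6 had 212 CPM in the same library, against 40.0 to 60.1 CPM, and 29.6 CPM in replicate 5 of knockout saline, against 106 to 136 CPM. mt-Atp8 had 16.2 CPM in replicate 2 of knockout LPS, against at most 3.04 CPM in the other 4. Among the tRNAs, mt-Ty had 8.89 CPM in replicate 4 of knockout LPS, against 3.09 to 4.52 CPM, and mt-Tw had 5.87 CPM in replicate 3 of wild-type saline, against 3.87 to 4.41 CPM.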

How the results depend on the processing

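Without further terms, 0 members were called in each of the 7 comparisons under other size factors, TMM factors without the mitochondrial genes, DESeq2, limma-voom, both other filters, and without any single library. For the knockout over both treatments this became 2 with the library set term, 2 with the replicate block and 7 in replicates 3 to 5 alone. Within a treatment, replicates 3 to 5 alone gave 1 after LPS and 1 after saline. The replicate block changed no other call of members. The fit with the set term kept mt-Tp and mt-Tl1 in all 20 fits without a single library. For the knockout after LPS it gave 0 to 1 calls without single libraries, and 1 without the 3 libraries highest in thalamus markers. In replicates 3 to 5 alone, single omissions gave 2 to 9 calls over both treatments, 0 to 4 after LPS and 0 to 2 after saline.

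The knockout difference in mitochondrial share, -0.81 percentage points, had an unadjusted p under 0.05 in the exact permutation test with labels permuted within the sets (-0.81, p = 0.0075, adjusted 0.0675) and in replicates 3 to 5 alone (-1.26, p = 0.015, not adjusted). Without single libraries it ranged from -1.24 to -0.44. Without the 3 libraries highest in thalamus markers, the LPS difference became 0.0839 points in wild-type, 0.482 in knockout and 0.283 over both. In replicates 3 to 5 alone it was 0.0998 in knockout. Without single libraries the LPS difference ranged from -0.78 to 0.52 in knockout, -1.32 to 0.31 in wild-type and -0.73 to 0.0853 over both, the knockout difference from -1.42 to 0.0059 after LPS and -1.83 to -0.22 after saline, and the interaction from -0.46 to 1.18. The tRNA share of mitochondrial counts ranged from -0.0443 to -0.0340 points without single libraries. Without mt-Tp it was -0.0119 (exact permutation p = 0.157). In replicates 1 and 2 alone (-0.0446, exact p = 0.111, smallest possible 0.0556) and under the replicate block (-0.0403, exact p = 0.0625, the smallest possible) the test could not reach 0.05. The difference between the sets was 5.84 points with TMM factors without the mitochondrial genes, and 4.38 to 4.65 without single libraries.

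In replicates 1 and 2 alone, log2 fold changes turned direction for mt-Tg under LPS in wild-type (-0.15) and for mt-Co3 in the knockout after saline (0.16), under LPS over both genotypes (0.12) and in the knockout over both treatments (0.49). The causes were not tested. The repeats of the set-term fit and of replicates 3 to 5 without single libraries, the share without mt-Tp and the test between the sets were chosen after seeing the data. Depth limits the tRNAs most: 7 did not pass the filter, and 8 had under 200 counts in all.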
